A study of Mus musculus with 3 samples.

Results

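The interferon regulatory factor (Irf) family was examined in a list of H3K4me1 enriched regions from cytokine treated mouse islets. The members were the 8 genes Irf1, Irf2, Irf3, Irf4, Irf5, Irf7, Irf8 and Irf9, among 22350 protein-coding genes annotated on chromosomes 1 to 19 and X (GENCODE M1, mm9). A region was counted at a member where it overlapped the annotated gene or lay within 50 kb of any of its annotated transcription start sites (TSS). This gave 70 of the 65709 regions in the list, and no region belonged to 2 members. Members known in immune cells (Irf4, Irf5 and Irf8) were set beside the broadly expressed members (Irf1, Irf2, Irf3, Irf7 and Irf9).

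The list came from 1 ChIP-seq library. By the labels, islets of CD1 mice aged 8 to 12 weeks recovered for 4 to 6 hours after isolation and were then held for 4 days in medium with IFNγ (1.6 ng/ml), TNFα (0.16 ng/ml) and Il-1β (0.25 ng/ml). For the ChIP the study's methods name ICR mice and a narrower age range. DNA from several immunoprecipitations had been pooled before sequencing. H3K4me1 in untreated islets and the RNA levels of the members were not analysed here, so no value below is a response to the cytokines. The list gives the position of each region and no score or read count. The sequencing depth is therefore unknown, there are no replicates, and all values are descriptions with no test. Islets hold endocrine cells together with resident macrophages and vascular cells, and the cell type that gave a region cannot be told apart in this library.

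Irf proteins share an N-terminal DNA-binding domain that reads GAAA repeats, the core of the interferon-stimulated response element (ISRE). Irf1 is induced by IFNγ through gamma-activated sites (GAS). Irf2 binds the same elements as Irf1 and is known to counter it, and Irf9 is part of the ISGF3 complex, which acts after type I interferon. Irf3 and Irf7 are switched on by kinases of innate immunity and drive type I interferon genes, while Irf4, Irf5 and Irf8 are best known from lymphocytes and macrophages. H3K4me1 marks enhancers that are active or poised, and it also lies on the flanks of active promoters, where it commonly gives way to H3K4me3 at the TSS itself.

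Each of the 8 members had at least 1 region, as did 82.3% of all protein-coding genes. At 7 of the 8 a region lay over an annotated TSS, against 39.1% of all genes. A region lay over the first TSS, the most upstream of the gene, at Irf4, Irf5, Irf7, Irf8 and Irf9, which is 5 of 8 against 31.1% of all genes. At Irf1, Irf2 and Irf3 the first TSS was free of a region but had regions within 5 kb on both sides, which is 3 of 8 against 13.9% of all genes. Every member therefore had H3K4me1 on or on both flanks of its first TSS, whereas 19.1% of all genes had a region within 5 kb on 1 side only and 35.9% had none there. The 5 kb distance was chosen after the maps of the members had been seen.

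The 3 promoters below are shown because they held GAS matches, the element through which IFNγ acts, and because they fell on different sides of the region edges. Each is the 250 bases before the first TSS on the strand of the gene, read from the mm9 genome, with motif matches in capitals. The letters searched on both strands were TTCNNNGAA for GAS, GAAANNGAA for ISRE, GGAANNGAA for the composite element of ETS and Irf proteins, TGANTCA for AP-1, and the κB consensus. The Irf1 sequence lies at chr11:53583266-53583515 (plus strand), the Irf2 sequence at chr8:47824849-47825098 (plus strand) and the Irf8 sequence at chr8:123260008-123260257 (plus strand).
Irf1: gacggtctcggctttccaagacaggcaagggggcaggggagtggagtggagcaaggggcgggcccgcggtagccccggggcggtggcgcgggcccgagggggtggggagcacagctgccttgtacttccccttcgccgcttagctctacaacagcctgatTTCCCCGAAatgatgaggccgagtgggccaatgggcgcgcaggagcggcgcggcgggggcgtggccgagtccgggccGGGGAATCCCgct
Irf2: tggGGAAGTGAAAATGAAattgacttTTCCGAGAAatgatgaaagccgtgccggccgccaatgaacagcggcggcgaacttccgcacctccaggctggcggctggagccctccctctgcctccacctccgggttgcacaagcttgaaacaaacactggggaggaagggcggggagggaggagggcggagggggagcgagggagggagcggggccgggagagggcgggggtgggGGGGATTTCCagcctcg
Irf8: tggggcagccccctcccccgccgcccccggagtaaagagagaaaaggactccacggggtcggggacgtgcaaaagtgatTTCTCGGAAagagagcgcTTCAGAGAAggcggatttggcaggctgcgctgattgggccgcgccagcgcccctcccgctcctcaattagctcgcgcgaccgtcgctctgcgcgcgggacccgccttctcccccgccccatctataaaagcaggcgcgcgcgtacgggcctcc

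In the Irf1 promoter the GAS match TTCCCCGAA began 90 bp before the TSS and the κB match GGGGAATCCC began 13 bp before it. The upstream region of Irf1 ended 116 bp before the TSS, so both matches lay in the uncovered gap. The Irf2 promoter held an ISRE match beginning 241 bp before the TSS, an overlapping ETS-Irf match at 247 bp, a GAS match at 224 bp and a κB match at 17 bp. All of them lay in the gap around the Irf2 TSS, which began 899 bp before it. The Irf8 promoter held GAS matches at 171 and 153 bp before the TSS, and both lay inside the region over its TSS. A GAS match was thus present in 3 of 8 member promoters, and 7.94% of all 22350 promoters of that length (250 bases before to 50 after the first TSS) held one. The κB consensus was matched in 2 of 8 members and in 8.89% of all promoters, the ISRE in 1 of 8 and 8.93%, the ETS-Irf element in 1 of 8 and 7.79%, and AP-1 in 0 of 8 and 6.93%. No listed motif was matched in this window at Irf3, Irf4, Irf5, Irf7 or Irf9. Outside it, the regions over the first TSS held matches, among them κB at Irf4 and Irf5, ISRE at Irf7 and GAS at Irf9. A match describes letters only and does not show binding.

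**Figure D1:**
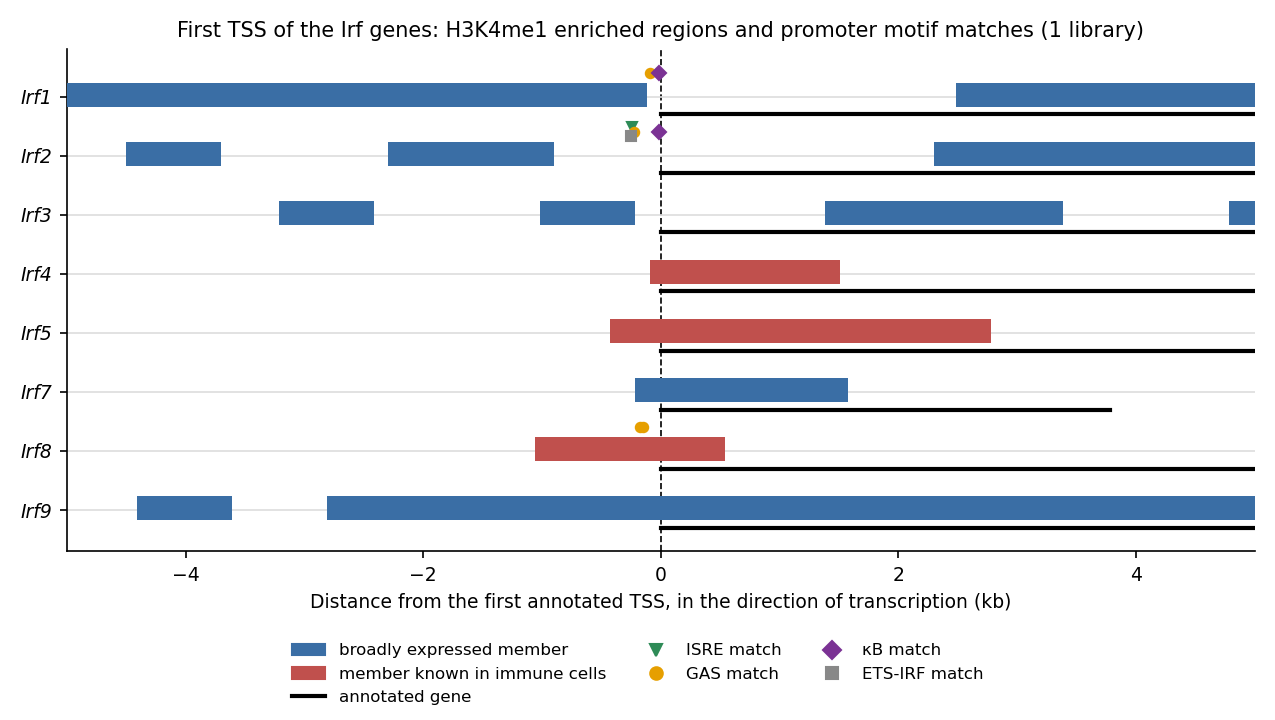
The map spans 5 kb on each side of the first annotated TSS of each member, in the direction of transcription (x axis, kb), with H3K4me1 enriched regions as boxes, the annotated gene as a black line and promoter motif matches as symbols. The boxes stop short of the dashed TSS line at Irf1, Irf2 and Irf3 and cross it at the other 5 members, and the GAS matches lie outside a box at Irf1 and Irf2 and inside it at Irf8.

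Irf1, the activator induced directly by IFNγ, lies at chr11:53583516-53591876. Its 7 regions covered 31.5% of the 50 kb on each side of the first TSS, and 95.1% of all genes had a lower share. A region of 12.6 kb upstream ended 116 bp before the TSS, and only 1.19% of all regions in the list were as wide. The next region began 2485 bp after the TSS, ran for 9.0 kb through the gene and ended 11484 bp after the TSS, beyond the gene end. The gap of 2.6 kb between them held all annotated protein-coding starts of Irf1. Of its 11 annotated TSS 1 was covered, the start of a retained-intron transcript inside the gene. Within 5 kb on each side of the first TSS 74.0% of the sequence was covered, and 98.0% of genes had a lower value.

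Irf2, the counterpart of Irf1, lies at chr8:47825099-47932812 and had the most regions of the family, 20. They covered 46.0% of the 50 kb on each side of its TSS, and 99.2% of all genes had a lower share. Of the 20 regions 13 lay inside the gene, and the widest was an intronic region of 15.4 kb that began 14.9 kb after the TSS, a width reached by 0.691% of all regions. Further intronic regions of 7.6, 5.2, 5.0 and 4.6 kb were spread along the gene. The 7 upstream regions were 0.2 to 3.0 kb wide. Their closest TSS was that of Gm16675, a lincRNA that starts 230 bp from Irf2 on the opposite strand. No other protein-coding gene has its first TSS within 50 kb of that of Irf2.

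Irf1 and Irf2 were also close in the part of the protein that holds the DNA-binding domain. When the first 120 residues were aligned, 72.5% of the aligned positions were identical, and 42.5% when the whole proteins were aligned. Positions opposite a gap were left out of these shares, so the order of close values can depend on how gaps are counted. By this measure Irf4 and Irf8 had the highest values of the family, 74.3% and 47.0%. The lowest value for the first 120 residues was 32.2%, between Irf1 and Irf3.

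Irf3, a constitutively present factor activated by Tbk1, lies at chr7:52253018-52258218 among closely spaced genes. It had 13 regions, the second highest number in the family, but none was wider than 2.2 kb and they covered 12.8% of the 50 kb on each side of its TSS. With only regions of at least 1000 bp, Irf3 had 7, fewer than Irf9 with 8. The first TSS of Irf3 lies inside Bcl2l12, 1064 bp from the first TSS of that gene. Regions ended 218 bp before and began 1383 bp after the Irf3 TSS, which left a gap of 1.6 kb. Of the 13 regions of Irf3 11 had their closest TSS at another gene. Cpt1c, a carnitine palmitoyltransferase of the brain, took 3 of them, and Bcl2l12 and Scaf1 took 2 each. Of its 9 annotated TSS 2 were covered, both of processed transcripts inside the gene.

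Irf7, the interferon-inducible partner of Irf3 in driving type I interferon genes, lies on the minus strand at chr7:148448605-148452380. A region of 1.8 kb covered all 11 of its annotated TSS, from 220 bp before to 1579 bp after the first. It held 2 ISRE matches, beside 0.374 ISRE matches per kb over all regions on chromosomes 1 to 19 and X. They are printed because Irf7 is itself known as a gene that responds to interferon. Positions count from the first TSS, with the match in capitals and 10 flanking bases on each side on the strand of the gene. The first lies in an intron of all 6 annotated transcripts that span it, and the second in an exon of 8 of the 9 that span it and in the coding sequence of none.
Irf7 ISRE match 373 bp after the first TSS (chr7:148451999-148452007): ctgtttaggtTTCATTTTCctgagatgca
Irf7 ISRE match 637 bp after the first TSS (chr7:148451735-148451743): tcacacttgtGAAACTGAAattcctacct

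No region lay in the rest of the Irf7 gene or in the 30.8 kb after it. Beyond that, a region of 8.4 kb lay 43.2 kb after the first TSS, over Rassf7 and Mir210. The Irf7 regions covered 15.6% of the 50 kb on each side of its first TSS, above Irf3 at 12.8%. Both were above the 7.0% median of all genes and below Irf1, Irf2 and Irf9. Of the 7 regions 6 had their closest TSS elsewhere, among them 2 at Sct (secretin) and 2 at Drd4 (a dopamine receptor).

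Irf9, the DNA-binding subunit of ISGF3, lies at chr14:56222408-56228867. A region of 8.2 kb covered all 6 of its annotated TSS and most of the gene, from 2807 bp before to 5392 bp after the first TSS. Among the 6952 genes with a covered first TSS 92.3% had a narrower region there, and the median was 2.6 kb. Irf9 had the highest covered share of the family within 5 kb on each side of the first TSS, 86.1%, and within the gene, 83.5%. Its first TSS lies within Rnf31, a ubiquitin ligase subunit that acts in NF-κB signalling, and the same region covered the end of Rnf31. The other 8 regions of Irf9 had their closest TSS at other genes. They included regions of 3.2 kb at Psme1 and 5.6 kb over Psme2 and Rnf31, where Psme1 and Psme2 encode the proteasome activator that IFNγ is known to induce. With 11 other protein-coding first TSS within 50 kb, Irf9 had the densest surroundings of the family, and the part of its 33.6% share that belongs to these neighbours was not tested.

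**Figure D2:**
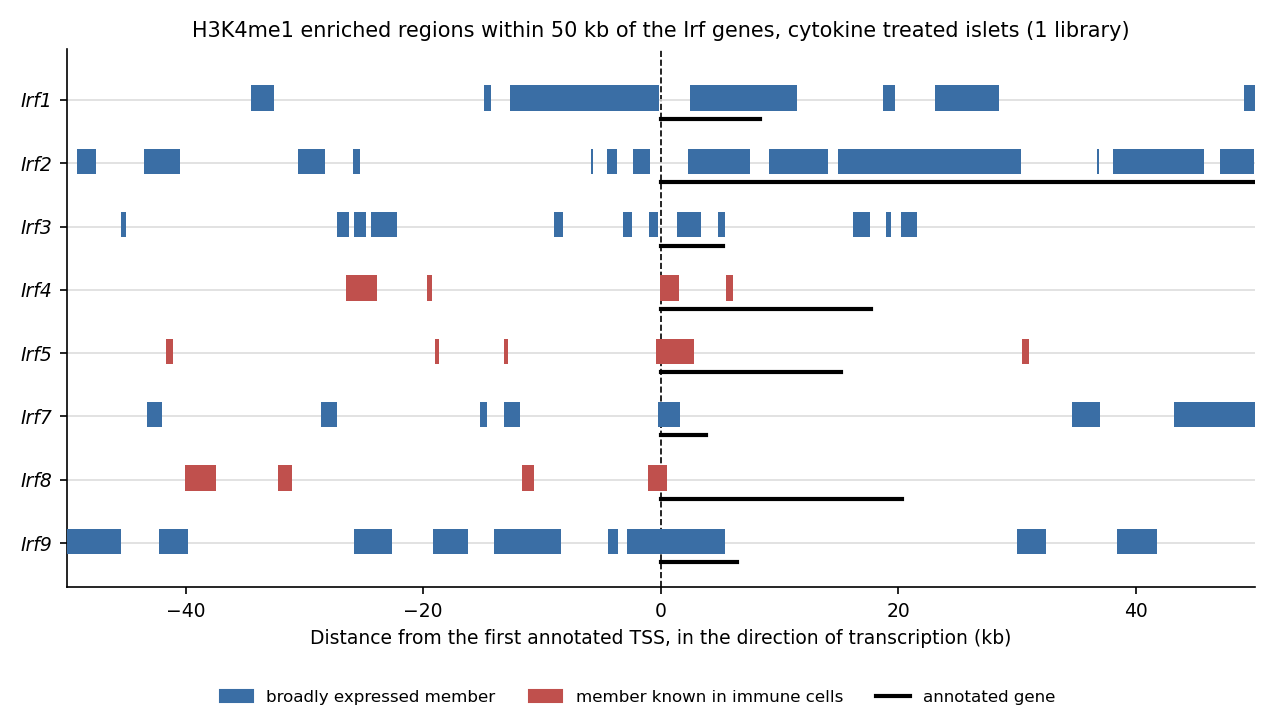
The map spans 50 kb on each side of the first annotated TSS of each member, in the direction of transcription (x axis, kb), with H3K4me1 enriched regions as boxes and the annotated gene as a black line. Wide boxes fill much of the sequence around Irf1, Irf2 and Irf9, while Irf4, Irf5 and Irf8 have few and narrow boxes and the space after Irf8 is empty. The boxes of Irf3 are more numerous but also narrow, at most 2.2 kb.

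Irf4, a factor of B cells, T cells and dendritic cells, lies at chr13:30841095-30858796. It had 4 regions, which covered 5.2% of the 50 kb on each side of its TSS. A region of 1.6 kb began 94 bp before the TSS and ended 1505 bp after it, and a second of 0.6 kb lay inside the gene, 5.51 kb after the TSS. Upstream, regions of 2.6 and 0.4 kb lay 23.9 and 19.3 kb before the TSS. The next region after the gene was 143 kb beyond its end. Irf4 has no other protein-coding first TSS within 50 kb.

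Irf5, which acts after Myd88 in macrophages, lies at chr6:29476625-29491869. A region of 3.2 kb, the widest at a first TSS among the immune members, ran from 424 bp before to 2775 bp after the first TSS and covered 3 of its 7 annotated TSS. The other 5 regions were 0.4 to 0.8 kb wide and had their closest TSS at other genes, Kcp, Gm17515 and Tnpo3. The covered share was 5.2%, the same as at Irf4.

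Irf8, a lineage factor of macrophages and dendritic cells that is also induced by IFNγ, lies at chr8:123260258-123280594. A region of 1.6 kb ran from 1057 bp before to 542 bp after its first TSS, so most of it was upstream, in contrast to Irf4, Irf5 and Irf7. Regions of 1.0, 1.2 and 2.6 kb lay 10.7, 31.1 and 37.5 kb before the TSS. This region covered 2.67% of the gene, and no other region lay in the gene or in the 192 kb after its end. The covered share was 6.4%, and 47.6% of all genes had a lower one.

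The immune members thus had 4 to 6 regions (median 4) and the broadly expressed members 7 to 20 (median 9), beside a median of 5 over all genes. Covered shares were 5.2% to 6.4% against 12.8% to 46.0%, and the medians of 5.2% and 31.5% lay on either side of the 7.0% median of all genes. Inside the annotated gene 2.67% to 18.2% of the sequence was covered in the immune members and 41.8% to 83.5% in the broadly expressed ones, with a median of 4.76% over all genes. The groups did not overlap in these 3 measures, with 50 kb used for the regions and the covered shares. The share inside the gene does not use that distance and depends on gene length. Irf4, Irf5 and Irf8 span 15.2 to 20.3 kb, Irf1, Irf3, Irf7 and Irf9 span 3.78 to 8.36 kb, and Irf2 spans 108 kb. In covered kb inside the gene the groups overlapped, with 0.543 to 2.78 kb against 1.58 to 48.8 kb. With 20 kb the covered shares overlapped (6.5% to 10% against 9.5% to 58.0%) and so did the numbers of regions (2 to 4 against 3 to 16). With 100 kb the numbers overlapped (7 to 16 against 11 to 22) and the shares did not (6.9% to 7.4% against 15.3% to 31.2%). They overlapped within 5 kb on each side of the first TSS, where the immune members had 16.0% to 32.0% and the broadly expressed members 18.0% to 86.1% covered, and Irf7 with 18.0% stood within the immune range. The genes of a group are not replicates, so the differences carry no test.

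The number of regions depended on how they were assigned. Counted only where the closest TSS of any gene was that of the member, 1 to 2 regions remained at the immune members and 1 to 11 at the broadly expressed ones. Counted by the closest TSS of a protein-coding gene, an assignment added after the data had been seen, the difference in medians turned from 5 fewer to 1 more in the immune members, with 1 to 4 regions against 1 to 19. This last count takes every region of the list within 100 kb and includes 1 region that is not among the 70. Irf4, Irf5 and Irf8 have 0 to 1 other protein-coding first TSS within 50 kb and the broadly expressed members 0 to 11. Irf2 had 0 such neighbours, though 7 of its regions had their closest TSS at the lincRNA Gm16675. The part of gene density in the shares was not tested.

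**Figure D3:**
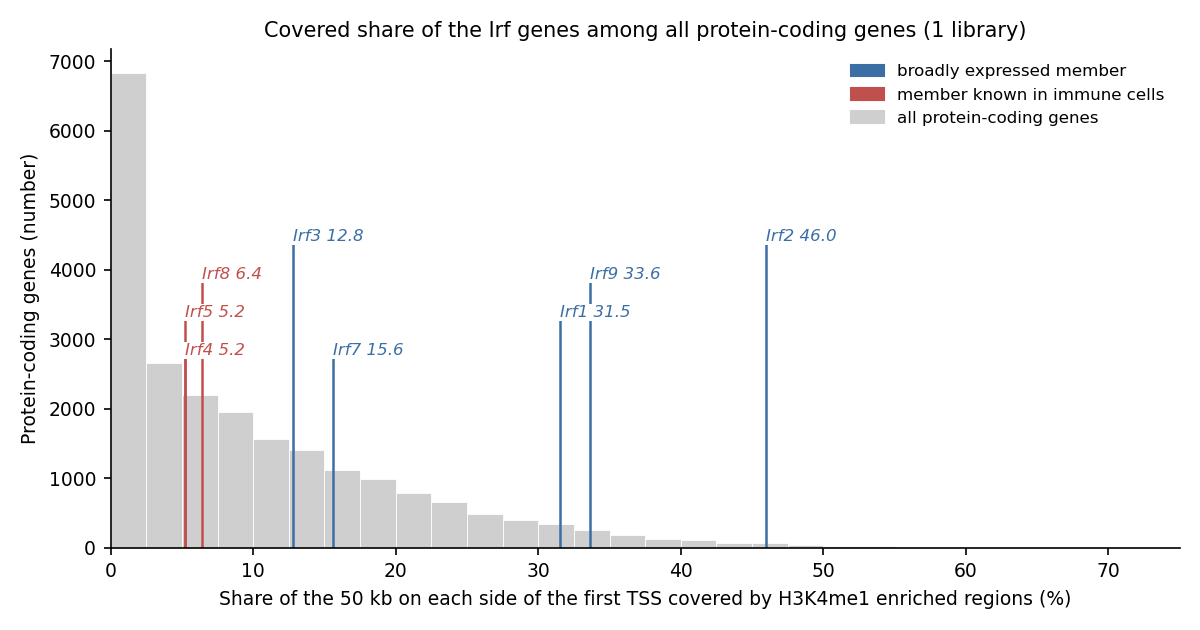
The histogram gives the number of protein-coding genes (y axis) by the share of the 50 kb on each side of the first TSS covered by H3K4me1 enriched regions (x axis, %), with each member marked at its value. Irf4, Irf5 and Irf8 stand at 5.2% to 6.4%, near the median of all genes at 7.0%, and Irf1, Irf9 and Irf2 stand at 31.5% to 46.0% in the upper tail.

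By distance from the first TSS, the highest covered share of each immune member was in the bin around the TSS, as was the highest mean over all genes. Irf9 had 100% there and also between 1 and 5 kb after the TSS. Within 1 kb of the first TSS 54.8% (Irf4), 71.2% (Irf5) and 77.2% (Irf8) of the sequence was covered, beside a mean of 29.5% over all genes. Between 5 and 20 kb after the TSS the values of Irf4, Irf5 and Irf8 fell to 4.0%, 0% and 0%, with a mean of 10.9% over all genes. From 50 to 20 kb before the TSS, Irf4 had 8.67%, Irf5 2.0% and Irf8 12.7%, beside a mean of 8.39% over all genes. Irf7 had 61.0% within 1 kb, 0% between 5 and 20 kb after the TSS and 30.7% between 20 and 50 kb after it, where Irf4, Irf5 and Irf8 had 0%, 2.0% and 0% beside a mean of 9.37% over all genes. Irf2 showed the opposite profile, with 5.1% within 1 kb, 67.5% between 1 and 5 kb and 84.0% between 5 and 20 kb after the TSS. Irf1 was covered at 100% from 5 to 1 kb before the TSS and at 44.2% within 1 kb of it.

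**Figure D4:**
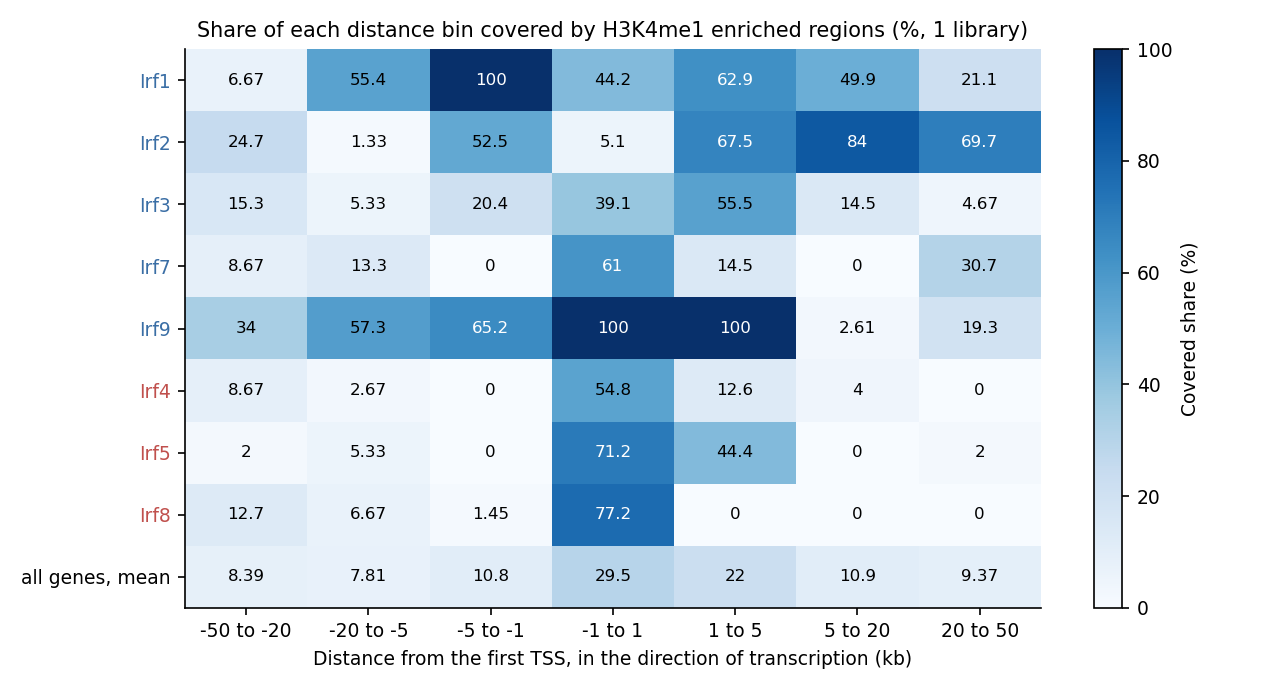
The heat map gives the share of each distance bin covered by H3K4me1 enriched regions (%, printed in each cell) for the 8 members and as the mean of all protein-coding genes, with distance from the first TSS in the direction of transcription on the x axis (kb). Irf4, Irf5, Irf7 and Irf8, like the mean of all genes, have their highest value in the bin around the TSS. Irf9 has 100% there and at 1 to 5 kb, and Irf2 has 5.1% around the TSS and 84.0% at 5 to 20 kb.

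The rule takes regions in a gene or near its TSS, so the regions of the family are placed closer to starts than an average region. By the midpoint and the closest TSS of any gene, 27 of 70 (38.6%, exact 95% interval 27.2% to 51.0%) lay within 2 kb, against 23.6% of all regions. A further 27 (38.6%) lay between 2 and 20 kb against 38.5% of all regions, 14 (20%, 11.4% to 31.3%) between 20 and 100 kb against 29.0%, and 2 (2.86%) beyond 100 kb against 8.86%. These intervals cover counting error only, and regions of 1 gene are not independent. The median width was 1600 bp, beside 1200 bp in the whole list. In the 871 bins of 200 bp that make up these regions, 6.66% held an ISRE match and 5.51% a GAS match, beside 6.86% and 6.42% of all bins. For κB the values were 5.4% and 3.73%.

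Promoter base composition did not follow these groups. The CpG observed to expected ratio of the 300 bases around the first TSS was 0.401 at Irf4, 0.889 at Irf5 and 1.03 at Irf8, and it was 0.142 at Irf7, 0.3 at Irf9, 0.673 at Irf2, 0.712 at Irf3 and 0.912 at Irf1. The median of all genes was 0.534. Among the 5 members with a covered first TSS, Irf7, Irf9 and Irf4 lay below that median and Irf5 and Irf8 above it, while the 3 members with a gap all lay above it.

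Genes that act around the family were described by the same measures, and their counts are read against the 82.3% of all genes with a region and the 39.1% with a covered TSS. Of 8 interferon signalling genes 2 had a covered TSS (Ifngr1 and Stat2). In so short a list the difference from the 39.1% of all genes was not tested. The median covered share of the list was 13.4%. The highest shares there were at Jak1, the kinase of the receptors, with 41.3%, and at the kinase Tyk2 with 23.6%, and the lowest was at Ifnar1 with 5.28%. Of 10 STAT and SOCS genes 8 had a covered TSS, and their median share was 23.3%. Stat3, Stat5a and Stat5b, all on chromosome 11, had 42.2%, 49.8% and 49.2%, and whether they shared regions was not tested. Socs3, a feedback inhibitor of cytokine receptors, had 66.8%, and the genes without a covered TSS were Stat4 and Socs1. Of 9 NF-κB genes 8 had a covered TSS, the median was 26.8%, and Bcl3 had 53.6%. Rel, the subunit best known in lymphocytes, was the exception with 1 region, 2.0% and no covered TSS.

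Of 10 genes in the pathways that activate Irf3, Irf5 and Irf7, 6 had a covered TSS, against 39.1% of all genes, and the median share was 10.1%. The adaptor Ticam1 had 35.0% and Irak1, a kinase after Myd88, had 2.8%. Of 13 genes known as targets of Irf proteins 7 had a covered TSS, with a median share of 10.8%. Psmb9 and Tap1, of the immunoproteasome and of peptide transport, each had 29.0%, while Ifnb1, which encodes interferon beta, had 2.8%. Psmb9 and Tap1 both lie on chromosome 17, and whether the same regions gave both values was not tested. Of 5 partners and co-regulators 2 had a covered TSS, Batf and Irf2bp1, about the share of all genes, and the median covered share was 22.8%. The family median of 14.2% thus lay between the medians of these lists. All of them exceeded the 7.0% of all genes, but the interferon signalling list and the STAT and SOCS list share Stat2 and their genes were chosen with earlier results of these data known.

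Marker genes were read beside the immune members. All 12 endocrine genes had at least 1 region, against 82.3% of all genes, 3 had a covered TSS, against 39.1%, and their median share was 17.7%, with 41.0% at Mafa, 38.9% at Neurod1 and 2.2% at Gcg and Sst. Of 15 leukocyte genes 13 had a region and 3 a covered TSS (Cd68, Fcer1g and Pax5), and the median was 12.6%, with a range of 0% to 37.3%. The shares at macrophage and myeloid genes were widely spread. Fcer1g had 37.3%, Cd68 23.2%, Cd14 20.8%, Tyrobp 13.6% and Aif1 12.6%, while Csf1r had 1.8% and Emr1 and Itgam had no region. Ptprc, the common leukocyte antigen, had 1.2% and no covered TSS. Each of Irf4, Irf5 and Irf8 had its first TSS covered, as did Irf7, Irf9 and 31.1% of all genes. Of 8 genes of other tissues 2 had a covered TSS, and their median was 6.3%. The part of resident leukocytes in the regions of Irf4, Irf5 and Irf8 was not tested.

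**Figure D5:**
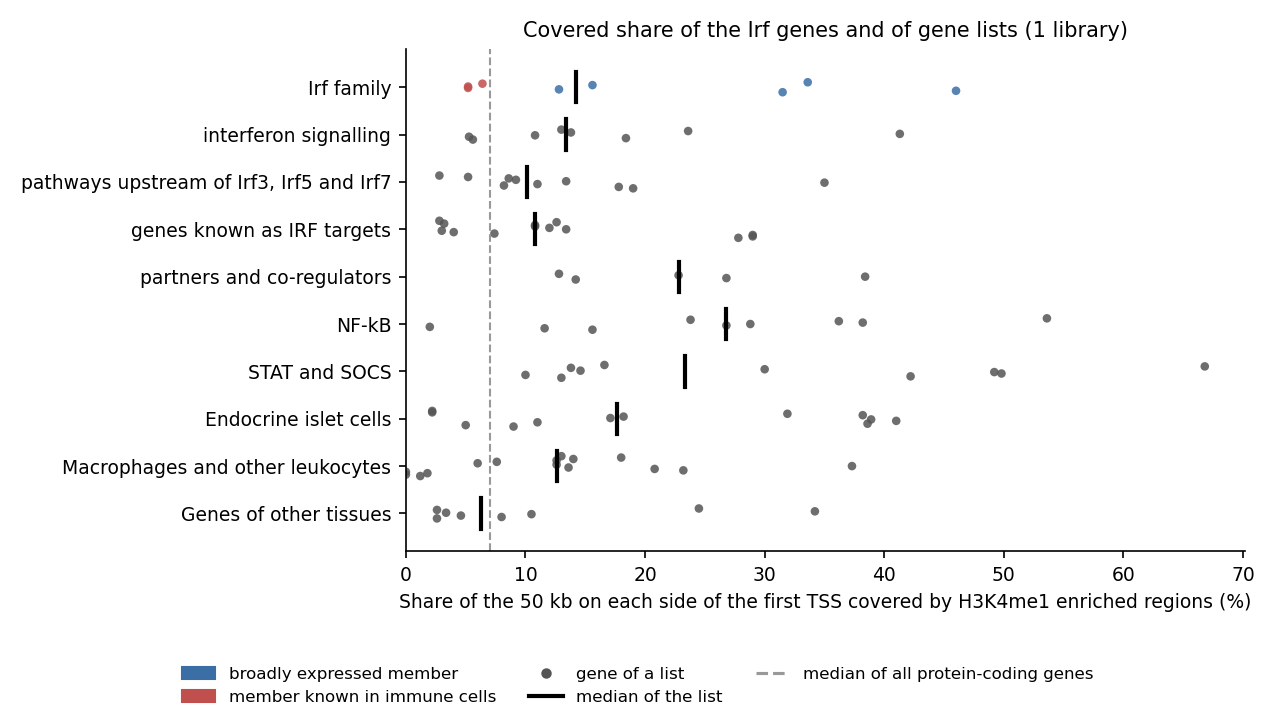
Each point is a gene, placed by the share of the 50 kb on each side of its first TSS covered by H3K4me1 enriched regions (x axis, %), with the Irf family on top and the gene lists below, a black bar at each median and a dashed line at the median of all protein-coding genes (7.0%). The broadly expressed Irf genes spread from 12.8% to 46.0%, and the NF-κB and the STAT and SOCS lists have the highest medians, 26.8% and 23.3%.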

How the data were processed

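H3K4me1 was measured by ChIP-seq in 1 pooled sample of cytokine treated islets. Per the submitters' processing notes the series used Bowtie2 2.2.1, TopHat2 2.0.11 and Cufflinks 2.2.1. According to the study's methods, reads were aligned to mm9 and regions were found with ChromHMM, whose settings are not given in the sources used here. The methods also describe the removal of weakly enriched regions from the set merged from untreated and treated islets. Whether this had been done for the deposited list, which is smaller than that set, is not given. The deposited list holds chromosome, start and end only, on a 200 bp grid; width stood in for a stricter threshold. From it, regions per gene, covered shares, distances to GENCODE M1 starts and motif matches in the mm9 genome were computed with Python 3.11.15, pandas 2.3.3, numpy 2.4.6, scipy 1.17.1 and Biopython 1.88, after the region arithmetic had been tested on simulated data. Proteins were translated from the first-numbered coding transcript of each gene and aligned globally with BLOSUM62. Identity was counted over aligned positions, with gaps left out.

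The members and lists were chosen with earlier results of these data known. All 8 members are named. Other genes are named where a described region lies in them or is closest to them, and from each list by the highest 2, the lowest 3 or the uncovered genes. Examples beyond this rule were chosen after their values were seen. Spi1, Nlrc5 and Irf2bpl did not match the annotation and were left out, and 1 other listed gene is not reported here. Alternatives varied width, gaps, TSS, distance and assignment.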

Additional observations from a re-analysis of the deposited data

How the results depend on the processing

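With 1 library and no scores or counts, replicate error is unknown. The list is smaller than the set the study merged from untreated and treated islets, and whether weak regions had been removed from it is not given in the sources used here. A region that is missing may not have been detectable or may have been filtered out, and does not show that H3K4me1 is absent. Of 69 alternative values of the summary measures 57 stayed within 1.5 times the value reported. Some of these could not change. The covered share is always taken around the first TSS, which is of a coding transcript at every member, so the choice of TSS leaves it the same. The median covered share of the 8 members was 35.1% within 5 kb, a distance added after the data had been seen. With 20 kb in place of 50 kb the members had 45 regions in all and a median of 4, and the difference in medians, immune minus broad, was -2. With 100 kb they had 117 regions and a median of 14. With regions kept only where the closest TSS of any gene was the member's, the total was 21, the median 1.5 and the difference -1. With the closest protein-coding TSS, also added later, the total was 33 (1 of them outside the 70, which hold 32), the median 2 and the difference 1, a reversal of the reported -5. Leaving out each member in turn, the difference in regions ranged from -7 to -4 and the difference in covered share from -27.4 to -18.4 percentage points, around the reported -26.3. Under the other distances, widths and gaps the difference in covered share stayed between -37.5 and -18.8. The members with a covered TSS numbered 7 and fell to 5 when only starts of protein-coding transcripts or only first TSS were used. Of 80 alternative values for single members 27 moved by more than 1.5 times, and 1 of these was a covered share, that of Irf5, which fell to 3.2% with regions of at least 1000 bp.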
